A study of Mus musculus with 6 samples.

Results

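The genes of the synaptic vesicle and its release machinery were followed in mouse stem-like medulloblastoma cells. The members were 55 genes of 24063 gene symbols in the files, matched by symbol, with 1 transcript row per symbol. They fall into 6 roles: 10 vesicle membrane genes, 9 calcium sensors, 16 SNARE genes and their partners, 10 active zone and priming genes, 4 Rab genes and effectors, and 6 secretory granule genes. Of the 55, 45 passed the filter on low counts and were tested, and 10 were not.

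Neurons store transmitter in small vesicles that dock at the active zone, a protein scaffold on the presynaptic membrane. Priming factors of the Unc13 and Rims families ready the vesicle, SNARE proteins on vesicle and plasma membrane pull the bilayers together, and synaptotagmins couple fusion to calcium. Neuroendocrine cells use related SNAREs to release dense-core granules, which are packed with granins, and granule neuron progenitors, the cells from which this tumour type can arise, switch on synaptic genes as they differentiate.

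Bulk RNA-seq was carried out on stem-like medulloblastoma cells from cerebellum of the genotype Math1-Cre; SmoM2. Math1 regulatory sequence drives Cre in granule neuron progenitors, and SmoM2 is an active form of Smoothened, the transducer of Hedgehog signals, so every group carried the same oncogenic allele. One group carried the CRISPR guide sgMiat-6 and another sgMiat-96, both named for the long noncoding RNA Miat and labelled as its knockdown, and the control group carried sgGal4-4, named for a yeast protein, and is labelled WT. There were 2 libraries in each of the 3 groups, 6 in all; the labels give no animal age and do not say whether lines were clonal or replicates were separate cultures, so p-values measure the spread between these libraries, which may be technical.

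The libraries held between 18438909 and 19650274 counts in the rows used. Miat had 0 counts in all 4 Miat guide libraries, against 140 and 139 counts in the sgGal4-4 libraries, which is at least 178-fold lower against a floor of 3 counts over the 4 libraries. Among markers of neurons and their progenitors, 6 of 7 tested rose and 1 fell with both guides, the summed level of the 14 listed being 478 to 702 CPM in Miat guide libraries and 844 to 848 CPM in control libraries, with Atoh1 (the gene also called Math1) and Stmn2 at 0. The 8 astrocyte markers summed to between 660 and 838 CPM in Miat guide libraries and between 2837 and 2928 CPM in control libraries. Of 7 tested astrocyte markers, 6 fell and 1 rose with both guides. The 8 oligodendrocyte lineage markers summed to between 3115 and 4852 CPM in Miat guide libraries, against 2031 and 2105 CPM in control libraries. Of 5 tested oligodendrocyte lineage markers, 3 rose and 1 fell. The 8 microglial markers never summed above 1.08 CPM, and of 7 endothelial and mural markers both tested ones, Cdh5 and Acta2, fell, at no more than 1.47 CPM in any library. Of 5 neuroendocrine markers, 3 of which are members (Chga, Chgb and Syp), 2 rose and 1 fell, with sums of 65.5 to 75.3 CPM in Miat guide libraries and 53.2 to 56.1 CPM in control libraries. In bulk RNA, fewer cells of a type and less RNA per cell cannot be told apart, and the part of these marker shifts in the results below was not tested.

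With the mean of both Miat guides, 33 of the 45 tested members differed from sgGal4-4 at an adjusted p under 0.05 (edgeR, quasi-likelihood), which is termed a call here: 16 were higher and 17 lower. Of all 13219 genes tested, 66.5% were called, 33.1% higher and 33.4% lower, so the members' share of 73.3% lies near the background. The median log2 fold change was −0.13 over the tested members and 0.00 over all tested genes. Changes of at least 2-fold were called for 17 members, 7 higher and 10 lower, where 25.1% of all genes met that criterion. The 4 Miat libraries lay wholly above both controls for 14 tested members and wholly below for 16, 30 of 45, where 67.0% of all tested genes did not overlap.

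The roles differed in direction. Of 9 tested active zone and priming genes, 8 fell and 1 rose, with a median log2 fold change of −1.19. Of 5 tested granule genes, 3 rose and 1 fell, the median being 1.70. The vesicle membrane genes (4 higher, 2 lower of 9 tested, median −0.14) and the SNARE group (5 higher, 3 lower of 14 tested, median 0.10) were divided. The calcium sensors had 1 higher and 2 lower of 5 tested (median −0.64), and the Rab group 2 higher and 1 lower of 3 tested (median 0.32). Members with 3 or fewer counts in a group lie at the ends of their roles. The medians therefore keep the same values when such members are placed at their bound or count ratio, which is no test of the medians.

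**Figure D1:**
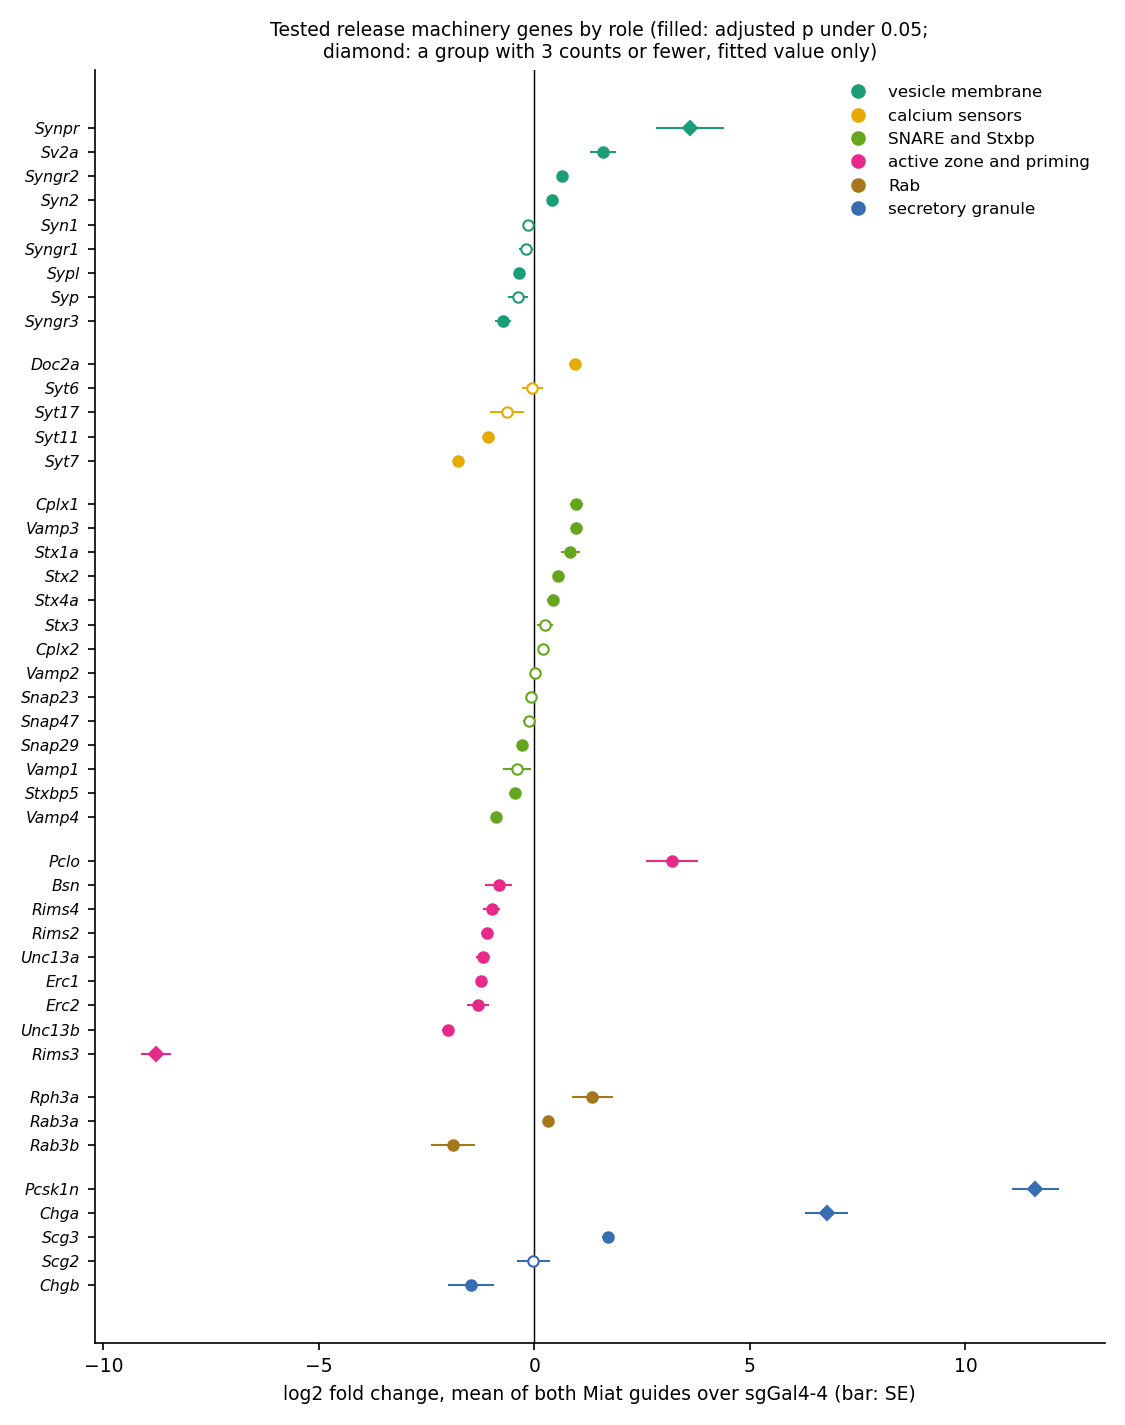
Log2 fold change of the mean of both Miat guides over sgGal4-4 for the 45 tested members, grouped by role, with bars for the standard error; filled symbols passed an adjusted p of 0.05 and diamonds mark fitted values of members with a group at 3 counts or fewer. The active zone genes other than Pclo lie left of 0, and Pcsk1n, Chga and Scg3 lie right of it.

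The largest 2 increases among the tested members were in genes of the dense-core granule. Pcsk1n, whose product proSAAS is a granin-like inhibitor of prohormone convertase 1, had 0 counts in both control libraries. Chga (chromogranin A), which helps to form granules, had 0 and 2 counts there. Their promoters, the 250 bases upstream of the RefSeq start on GRCm38.p6, are shown because these transcripts stood near 0 in control cells and were measurable in all 4 Miat guide libraries, along with that of Rims3, which did the opposite. The Pcsk1n window is chrX:7919572-7919821, the Chga window chr12:102554691-102554940 and the Rims3 window chr4:120854549-120854798, all on the plus strand. Capitals mark the letters of TGACGTNA, a motif of the cAMP response element kind, searched on both strands.
Pcsk1n: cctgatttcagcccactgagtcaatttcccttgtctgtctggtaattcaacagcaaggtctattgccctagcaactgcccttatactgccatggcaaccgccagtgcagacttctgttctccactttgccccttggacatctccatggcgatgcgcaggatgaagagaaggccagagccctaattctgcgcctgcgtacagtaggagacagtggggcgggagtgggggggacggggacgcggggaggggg
Chga: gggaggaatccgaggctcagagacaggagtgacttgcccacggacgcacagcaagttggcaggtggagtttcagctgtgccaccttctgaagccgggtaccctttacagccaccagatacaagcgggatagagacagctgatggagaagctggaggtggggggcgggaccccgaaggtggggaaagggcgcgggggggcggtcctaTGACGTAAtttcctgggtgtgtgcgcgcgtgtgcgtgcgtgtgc
Rims3: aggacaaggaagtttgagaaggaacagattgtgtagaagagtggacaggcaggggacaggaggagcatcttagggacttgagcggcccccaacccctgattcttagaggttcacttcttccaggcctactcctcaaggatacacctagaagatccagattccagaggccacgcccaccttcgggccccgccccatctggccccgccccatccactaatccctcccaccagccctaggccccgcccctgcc
The motif lay in 828 of 32851 mouse promoter windows of this length (2.52%) and in 5 of 56 windows of the 42 members that have one, those of Chga, Chgb, Rab3a, Scg2 and Syn1. The letters TTCAGCACC, the left part of the element read by the repressor Rest, lay in 0.301% of all windows and in that of Syn1 among members. These matches describe the letters and not binding.

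Pcsk1n was measured at 12.3 and 16.6 CPM in sgMiat-6 libraries, at 33.8 and 25.7 CPM in sgMiat-96 libraries and at 0 in both sgGal4-4 libraries. CPM here stands for counts relative to TMM-normalised library size, and TPM for the deposited values per transcript length. The groups did not overlap, and sgMiat-96 lay above sgMiat-6. Against the floor of 3 counts over the control group, Pcsk1n was at least 283-fold higher with both guides, at least 188-fold with sgMiat-6 and at least 389-fold with sgMiat-96 (edgeR adjusted p = 4.27e-09 for both guides). Pcsk1n (chromosome X, 7919822 to 7924410, plus strand) overlaps Eras on the opposite strand, and whether the libraries kept strand is not given, but Eras itself had 1 count over the 6 libraries.

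Chga was measured at 4.66 and 5.26 CPM in sgMiat-6 libraries, at 6.63 and 9.47 CPM in sgMiat-96 libraries, and at 0 and 0.101 CPM in sgGal4-4 libraries. The ratio of counts, scaled for depth, was 125 for both guides over control, with a 95% Clopper-Pearson interval from 34.5 to 1037 that covers counting error only (edgeR adjusted p = 1.29e-07). All 4 Miat guide libraries were above both controls, whose only 2 counts were in replicate 2.

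Scg3 (secretogranin III), an adaptor that tethers chromogranin A to granule membrane, was the granule gene with the highest TPM in each group. Its levels were 42.4 and 42.2 CPM in sgMiat-6 libraries, 36.7 and 39.8 CPM in sgMiat-96 libraries and 11.5 and 13.2 CPM in sgGal4-4 libraries. The groups were well apart, with a log2 fold change of 1.70 ± 0.12 (SE, edgeR adjusted p = 8.89e-08), which is 3.25-fold. Per length, from the deposited TPM, Scg3 averaged 25.5 ± 1.42 with sgMiat-6, 18.6 ± 2.21 with sgMiat-96 and 8.70 ± 0.883 in control (SD, n = 2 each), above Pcsk1n at 8.74 ± 1.37, 14.5 ± 1.93 and 0 TPM.

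The other granule members were not called higher. Scg2 (secretogranin II) had means of 0.704 ± 0.0144, 0.854 ± 0.0159 and 0.793 ± 0.118 CPM with sgMiat-6, sgMiat-96 and sgGal4-4 (SD, n = 2 each), and did not pass the test with both guides (log2 fold change −0.03, adjusted p = 0.95). Chgb (chromogranin B) was called lower from 2 and 5 counts with sgMiat-6, 5 and 6 with sgMiat-96 and 16 and 10 in control, with a log2 fold change of −1.47 ± 0.54 (adjusted p = 0.0282). That call was lost in 8 of 14 alternative settings, among them the removal of either sgGal4-4 library (adjusted p = 0.338 without replicate 1 and 0.0657 without replicate 2) and DESeq2 (adjusted p = 0.159). Scg5, the 7B2 chaperone of prohormone convertase 2, had 0 counts in every library.

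**Figure D2:**
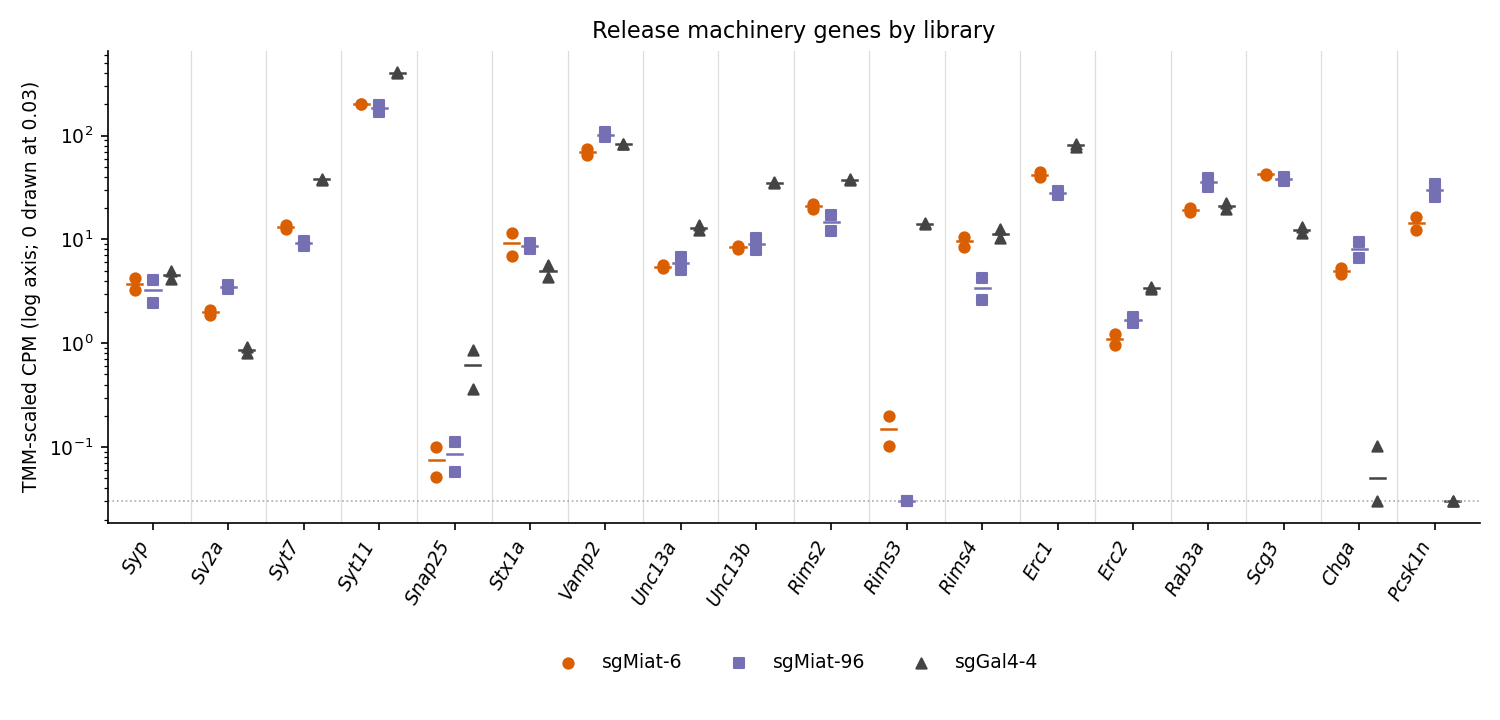
TMM-scaled CPM of 18 members in each of the 6 libraries on a log axis, with a horizontal bar for the mean of each group of 2; values of 0 are drawn at 0.03. Rims3 is at 14.4 and 13.98 CPM in sgGal4-4 libraries and at or near 0 with both Miat guides, and Pcsk1n and Chga show the reverse arrangement.

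The active zone genes had the lowest median of the 6 roles with both guides, before any removal of a trend over transcript length. With that trend removed, as described below, the calcium sensors had the lower median, at −0.81 against −0.60. Rims3, a short member of the RIM family that keeps only the carboxy-terminal C2 domain, was the active zone gene with the highest TPM in control, at 22.5 ± 0.375 TPM (SD, n = 2), next to its close relative Rims4 at 21.2 ± 2.76 TPM, which does not differ beyond the spread. Rims3 was measured at 0.198 and 0.102 CPM in sgMiat-6 libraries (4 and 2 counts), at 0 in both sgMiat-96 libraries, and at 14.4 and 13.98 CPM in sgGal4-4 libraries (280 and 276 counts). The groups were far apart in every library.

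Pooling the 4 Miat guide libraries, Rims3 (chromosome 4, 120854816 to 120896579, plus strand) was 177-fold lower than in control as a ratio of scaled counts. It was 90.3-fold lower with sgMiat-6 (log2 fold change −6.50 ± 0.35, edgeR adjusted p = 2.41e-08) and, with sgMiat-96, lower by at least 166-fold. The row kept for Rims3 is 977 bp long, so it is not one of the long transcripts described below.

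Rims4, also short at 832 bp, parted between the guides. It was measured at 10.7 and 8.47 CPM with sgMiat-6, at 2.59 and 4.27 CPM with sgMiat-96 and at 12.5 and 10.3 CPM in control. The sgMiat-6 and control ranges overlap, while both sgMiat-96 libraries lie below all others. The log2 fold change was −1.73 ± 0.25 for sgMiat-96 against control (edgeR adjusted p = 3.86e-05) and −0.25 for sgMiat-6 against control (adjusted p = 0.357), and the direct comparison of sgMiat-96 with sgMiat-6 gave −1.48 ± 0.25 (adjusted p = 0.00138).

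The priming factors Unc13a and Unc13b, which open syntaxin for SNARE assembly, fell with both guides. Unc13b was measured at 8.73 and 8.17 CPM with sgMiat-6, at 7.93 and 10.2 CPM with sgMiat-96 and at 34.9 and 35.4 CPM in control. Both Miat groups sat at about the same level, well below control, with a log2 fold change of −2.01 ± 0.13 (edgeR adjusted p = 3.27e-08), 4.01-fold lower. Unc13a was measured at 5.65 and 5.26 CPM with sgMiat-6, at 5.06 and 6.81 CPM with sgMiat-96 and at 13.8 and 12.2 CPM in control, and its log2 fold change was −1.19 ± 0.16 (adjusted p = 3.05e-05). The direct comparison of the guides called neither gene (log2 fold change of sgMiat-96 over sgMiat-6 0.10 for Unc13b and 0.12 for Unc13a), though with the trend over transcript length removed it called both higher with sgMiat-96 (0.48, adjusted p = 0.0323, and 0.58, adjusted p = 0.0371).

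Among the scaffolds, Erc1 and Erc2 (the ELKS and CAST proteins, which bind RIM) and Rims2, which recruits calcium channels and Unc13 proteins, also fell. Erc1 was measured at 44.3 and 39.7 CPM with sgMiat-6, at 26.5 and 29.3 CPM with sgMiat-96 and at 83.2 and 77.4 CPM in control, so the 3 groups were separate, and its log2 fold change was −1.23 ± 0.10 (edgeR adjusted p = 2.84e-07). Rims2 was measured at 22.1 and 19.7 CPM with sgMiat-6, at 12.1 and 17.2 CPM with sgMiat-96 and at 37.9 and 37.2 CPM in control, with a log2 fold change of −1.10 ± 0.14 (adjusted p = 1.17e-05); genes of its chromosome 15 had a median of −0.38 in the same comparison. Erc2 was measured at 1.24 and 0.970 CPM with sgMiat-6, at 1.57 and 1.79 CPM with sgMiat-96 and at 3.45 and 3.29 CPM in control, with a log2 fold change of −1.30 ± 0.26 (adjusted p = 0.000589). For these 3 genes, every Miat guide library was below both controls.

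Bassoon and Piccolo, the giant scaffolds encoded by Bsn and Pclo, went opposite ways. Bsn was called lower (log2 fold change −0.83 ± 0.30, edgeR adjusted p = 0.0281), but its groups overlap and the call was lost without sgGal4-4 replicate 1 (−0.34, adjusted p = 0.552), without sgMiat-96 replicate 1 (adjusted p = 0.0945) and in DESeq2 (adjusted p = 0.0855). Pclo was the active zone gene that rose, from low counts of 37 and 28 with sgMiat-6, 11 and 10 with sgMiat-96 and 1 and 3 in control, all Miat guide libraries being above both controls. Its log2 fold change was 3.19 ± 0.60 (adjusted p = 0.00043), and 4.10 without sgGal4-4 replicate 2; with sgMiat-96 alone against control it was 2.48, a call that was lost without sgGal4-4 replicate 1 (adjusted p = 0.0961). Rims1, the RIM form most studied at synapses, had 8 and 0 counts with sgMiat-6, 5 and 4 with sgMiat-96 and 0 and 2 in control and was not tested.

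Most active zone transcripts are long, with a median length of 7278 bp against 2733 bp over the tested members, and length went with the fold change across all genes. Genes of 6000 bp or more had a median log2 fold change of −0.59, and 66.1% of these 1451 genes were called lower, while 15.6% of the 4059 genes under 2000 bp were. The mean transcript length weighted by counts was 3255 and 3070 bp in sgMiat-6 libraries, 2659 and 2835 bp in sgMiat-96 libraries and 3575 and 3504 bp in sgGal4-4 libraries. With the trend over length removed in each library, 7 of the 9 active zone genes were still called lower and 1 higher, and their median was −0.60. Of all 13219 genes tested, 4559 were then higher and 4121 lower. In that fit Unc13b had a log2 fold change of −1.56, Erc2 −0.88, Unc13a −0.60, Erc1 −0.58 and Rims2 −0.56, whereas Bsn was at 0.08 and no longer called. For sgMiat-96 alone against control, 5 active zone genes were then called lower in place of 8, with a median of −0.60. Unc13a (−0.31), Erc2 (−0.39) and Bsn (0.070) were not called. Of all 13219 genes tested, 4507 were higher and 4079 lower with sgMiat-96 in that fit. The calls of Sypl, Snap29, Stx4a, Stxbp5 and Rab3a with both guides were also lost in that fit, and Snap47 and Cplx2 were called.

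**Figure D3:**
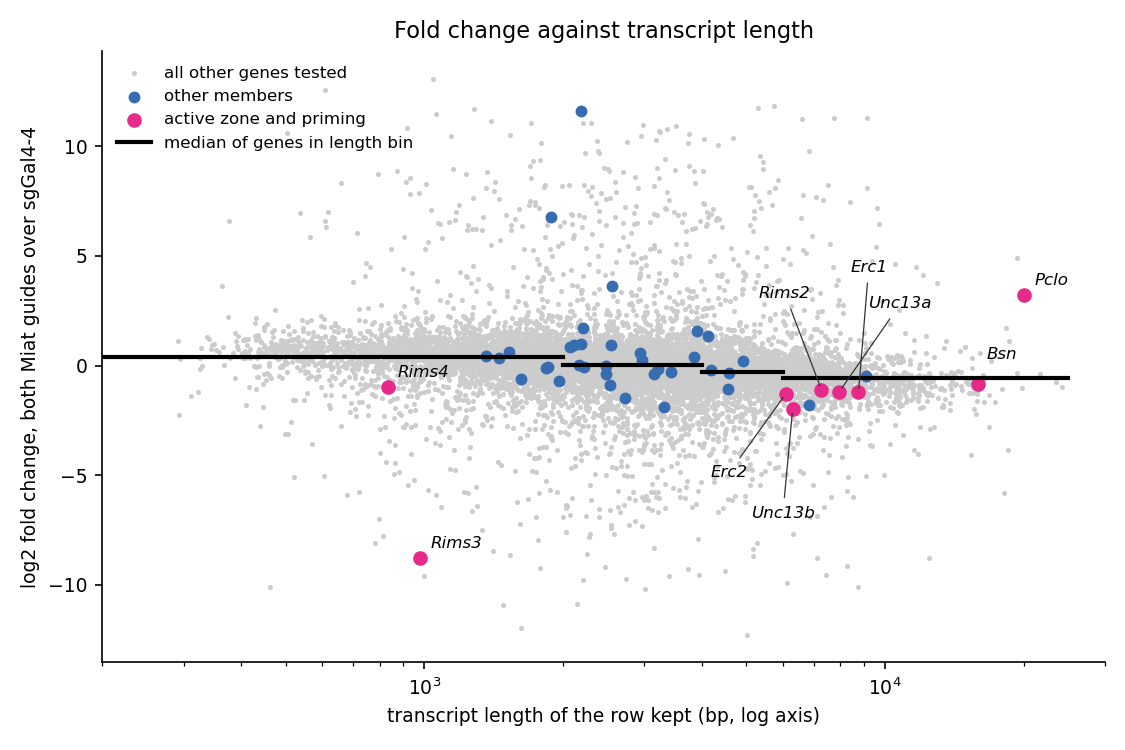
Log2 fold change of both Miat guides over sgGal4-4 against the length of the transcript row kept, on a log axis, for all 13219 tested genes (grey), the active zone and priming members (pink) and the other tested members (blue), with black bars at the median of each length bin. The bin medians run from 0.40 under 2000 bp to −0.59 at 6000 bp and above, and Rims3 and Rims4 are low among the short transcripts.

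Of the synaptotagmins and related C2-domain genes grouped here as calcium sensors, those measured well were Syt7, a slow, high-affinity sensor, Syt11, a synaptotagmin that does not bind calcium, and Doc2a, a soluble C2-domain sensor. Syt7 was measured at 13.7 and 12.7 CPM with sgMiat-6, at 8.60 and 9.70 CPM with sgMiat-96 and at 37.9 and 37.7 CPM in control. All 3 groups were separate, the log2 fold change with both guides was −1.78 ± 0.12 (edgeR adjusted p = 3.63e-08), and with the length trend removed it was −1.28. Syt11 was measured at 203 and 200 CPM with sgMiat-6, at 169 and 197 CPM with sgMiat-96 and at 408 and 397 CPM in control, with a log2 fold change of −1.07 ± 0.09 (adjusted p = 3.16e-07). Among the 9 genes of this role it had the highest TPM in each group of cells, at 58.8 ± 3.47, 43.1 ± 7.27 and 137 ± 1.75 TPM with sgMiat-6, sgMiat-96 and sgGal4-4 (SD, n = 2 each).

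Doc2a went the other way. Its means were 30.9 ± 5.26 CPM with sgMiat-6, 43.9 ± 7.76 CPM with sgMiat-96 and 19.3 ± 0.857 CPM in control (SD, n = 2 each), and its log2 fold change was 0.94 ± 0.14 (edgeR adjusted p = 7.48e-05); the gene overlaps Ino80e on the opposite strand, and reads of such a pair cannot be told apart without strand. Syt1, the fast calcium sensor of forebrain synapses, had 0 counts in every library and in all 3 of its rows. Syt4, Syt5 and Syt13 had at most 6 counts in any library and were not tested. Syt6 (log2 fold change −0.05, adjusted p = 0.874) and Syt17 (−0.64, adjusted p = 0.166) did not pass the test. For Syt6 the longest transcript row, with 13 and 20 counts in sgMiat-6, 9 and 4 in sgMiat-96 and 1 and 0 in control libraries, gave 4.13 where the row with more counts gave −0.05.

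The SNARE genes included few of the neuronal plasma membrane forms at measurable levels. Snap25, the neuronal t-SNARE, had 2 and 1 counts with sgMiat-6, 2 and 1 with sgMiat-96 and 7 and 17 in control, below the filter. All Miat guide libraries lay below both controls, and the scaled count ratio of control over sgMiat-6 was 8.13 (95% Clopper-Pearson interval 2.47 to 42.2) and of control over sgMiat-96 7.18 (2.18 to 37.2). Its relatives used outside synapses were well measured: Snap47 and Snap23 did not pass the test with both guides, at log2 fold changes of −0.13 and −0.07, and Snap29 was called lower at −0.30 ± 0.11 (edgeR adjusted p = 0.0286), a call lost without sgMiat-96 replicate 1 or either sgGal4-4 replicate (adjusted p from 0.0703 to 0.25).

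Stx1a, a neuronal syntaxin, rose. It was measured at 6.94 and 11.5 CPM with sgMiat-6, at 9.16 and 8.14 CPM with sgMiat-96 and at 4.38 and 5.62 CPM in control. The sgMiat-6 libraries were far apart, yet all 4 Miat libraries exceeded both controls, and the log2 fold change was 0.83 ± 0.22 (edgeR adjusted p = 0.00461). Stx2 rose by 0.56 ± 0.11 (adjusted p = 0.000552), and Stx4a by 0.43 ± 0.13 (adjusted p = 0.00951), both syntaxins of general secretion, but Stx4a overlaps another gene on the opposite strand, from which its reads cannot be told apart without strand, and its call was lost without sgGal4-4 replicate 1 (adjusted p = 0.0986). Stx3 did not pass the test (0.25, adjusted p = 0.258).

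Of the vesicle SNAREs, Vamp3 (cellubrevin), which serves recycling endosomes, had the highest TPM of the SNARE group in each group of cells. Its means were 159 ± 13.95 CPM with sgMiat-6, 225 ± 19.1 CPM with sgMiat-96 and 97.8 ± 2.50 CPM in control (SD, n = 2 each), with a log2 fold change of 0.95 ± 0.10 (edgeR adjusted p = 2.59e-06). Vamp4, of the Golgi and endosomes, fell by 0.90 ± 0.11 on the log2 scale (adjusted p = 1.22e-05), where genes of its chromosome 1 had a median of −0.48. Vamp2 (synaptobrevin 2), the v-SNARE of synaptic vesicles, was measured at 65.6 and 74.6 CPM with sgMiat-6, at 107 and 95.9 CPM with sgMiat-96 and at 83.6 and 83.7 CPM in control. By CPM the sgMiat-6 libraries lay below and the sgMiat-96 libraries above control, with a log2 fold change of 0.01 ± 0.10 for both guides together (adjusted p = 0.911). Against control, sgMiat-6 was not called (−0.25, adjusted p = 0.0782), though it was in 3 of 14 alternative settings, and the call with sgMiat-96 (0.28, adjusted p = 0.0423) was lost in 7 of 14 alternative settings, among them the removal of either sgGal4-4 library or of sgMiat-96 replicate 1 (adjusted p from 0.195 to 0.207). Per length, Vamp2 averaged 43.1 ± 1.65 TPM with sgMiat-6, 50.3 ± 0.935 TPM with sgMiat-96 and 59.9 ± 0.389 TPM in control (SD, n = 2 each), so on that scale both Miat groups lay below control. Vamp1 did not pass the test (−0.40, adjusted p = 0.299).

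The complexins, which clamp and then promote SNARE fusion, were both present. Cplx1 had means of 14.1 ± 1.68 CPM with sgMiat-6, 17.5 ± 0.488 CPM with sgMiat-96 and 7.99 ± 0.592 CPM in control (SD, n = 2 each), a log2 fold change of 0.97 ± 0.15 (edgeR adjusted p = 6.95e-05). Cplx2 had 102 ± 3.75, 97.2 ± 3.46 and 87.0 ± 9.62 CPM with sgMiat-6, sgMiat-96 and sgGal4-4 and did not pass the test (0.19, adjusted p = 0.1), though it was called with the length trend removed (0.50, adjusted p = 0.000138). Stxbp5 (tomosyn), which sequesters syntaxin, was called lower at −0.46 ± 0.12 (adjusted p = 0.0044), but stood at 0.21 with the length trend removed, and the call was lost without sgGal4-4 replicate 1 (adjusted p = 0.0639). Stxbp2, a syntaxin-binding protein of non-neuronal secretion, had 1 to 13 counts per library and was not tested.

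Vesicle membrane genes were divided. Syp (synaptophysin), the classic vesicle marker, was measured at 3.27 and 4.24 CPM with sgMiat-6, at 2.42 and 4.10 CPM with sgMiat-96 and at 4.95 and 4.15 CPM in control. The groups overlap, and the log2 fold change of −0.38 ± 0.24 did not pass the test (edgeR adjusted p = 0.179). Sv2a, a vesicle glycoprotein and the target of the drug levetiracetam, was measured at 2.08 and 1.89 CPM with sgMiat-6, at 3.32 and 3.64 CPM with sgMiat-96 and at 0.927 and 0.811 CPM in control. It rose in a stepped order without overlap, by a log2 fold change of 1.59 ± 0.30 (adjusted p = 0.000409).

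Syngr2 (cellugyrin), the synaptogyrin of non-neuronal vesicles, had the highest TPM of the vesicle membrane group in each group of cells and rose by 0.64 ± 0.11 on the log2 scale (edgeR adjusted p = 0.00017), while Syngr3, a synaptic vesicle form, was called lower (−0.73 ± 0.19, adjusted p = 0.004). Syn2, a synapsin that ties vesicles into clusters, was called higher (0.41 ± 0.11, adjusted p = 0.00456), and Sypl, a synaptophysin-like protein found in many tissues, was called lower (−0.35 ± 0.09, adjusted p = 0.00542). Leaving out 1 control library ended 3 of these calls: without replicate 1, Syngr3 had an adjusted p of 0.0696 and Sypl of 0.119, and without replicate 2, Syn2 had 0.0957. Per length, Syn2 averaged 15.1 ± 0.422, 10.2 ± 0.852 and 12.2 ± 0.485 TPM with sgMiat-6, sgMiat-96 and sgGal4-4 (SD, n = 2 each). On that scale it did not rise with sgMiat-96. Synpr (synaptoporin) had 16 and 15 counts with sgMiat-6, 10 and 12 with sgMiat-96 and 0 and 2 in control, a scaled count ratio of 13.9 for both guides over control (95% Clopper-Pearson interval 3.65 to 117). Syn1 and Syngr1 did not pass the test (−0.14, adjusted p = 0.347, and −0.20, adjusted p = 0.272), and Sv2b had 4 and 14 counts with sgMiat-6, 1 and 4 with sgMiat-96 and 0 in both controls, at least 4.01-fold higher over both guides and below the filter.

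In the Rab group, Rab3a, the GTPase that brings RIM to synaptic vesicles, had the highest TPM in each group of cells and was measured at 19.98 and 18.4 CPM with sgMiat-6, at 38.9 and 31.9 CPM with sgMiat-96 and at 19.4 and 22.2 CPM in control. Only the sgMiat-96 libraries stood apart, at a log2 fold change of 0.77 against control (edgeR adjusted p = 0.000434), which was 0.27 and not called with the length trend removed. For both guides together the call (0.32 ± 0.13, adjusted p = 0.0404) was lost in 8 of 14 alternative settings; without sgGal4-4 replicate 1 it was 0.23 (adjusted p = 0.337) and without sgMiat-96 replicate 1 0.25 (adjusted p = 0.108). Rab3b was called lower from 11 and 3 counts with sgMiat-6, 3 and 9 with sgMiat-96 and 19 and 32 in control (−1.89 ± 0.51, adjusted p = 0.00511), and the call was lost without sgGal4-4 replicate 2 (−1.48, adjusted p = 0.092). Rph3a (rabphilin, a Rab3 effector) was called higher at 1.35 ± 0.47 (adjusted p = 0.022); its groups overlap, the call was lost without sgGal4-4 replicate 2 (0.86, adjusted p = 0.213), without sgMiat-6 replicate 2 (adjusted p = 0.0572) and without sgMiat-96 replicate 2 (0.94, adjusted p = 0.117), and it was 2.06 without sgGal4-4 replicate 1. Rab27b, which tethers granules in secretory cells, had at most 12 counts in a library and was not tested.

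Each guide on its own was compared with the same control libraries, so the 2 comparisons are not independent of each other. With sgMiat-6, 27 members were called, 14 higher and 13 lower, where 53.0% of all tested genes were called, 26.9% higher and 26.1% lower. With sgMiat-96, 32 were called, 15 higher and 17 lower, where 68.2% of all tested genes were, 34.0% higher and 34.2% lower. Changes of at least 2-fold were called for 14 members with sgMiat-6 (19.5% of all genes) and for 20 with sgMiat-96 (31.7% of all genes). The active zone genes had 1 higher and 6 lower with sgMiat-6 (median −0.93) and 1 higher and 8 lower with sgMiat-96 (median −1.36). With the length trend removed, 5 were lower with sgMiat-96, where 4079 of all 13219 genes tested were. The granule genes had 3 higher and 1 lower with sgMiat-6 (median 1.77) and 3 higher and 0 lower with sgMiat-96 (median 1.63).

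The direct comparison of sgMiat-96 with sgMiat-6 called 16 of the 45 members, 7 higher and 9 lower, where 36.7% of all tested genes were called, 17.9% higher and 18.8% lower. At 2-fold or more there were 4 members, 1 higher and 3 lower, and 5.51% of all genes. Rab3a was higher with sgMiat-96 (log2 fold change 0.88 ± 0.15, edgeR adjusted p = 0.00134), as were Pcsk1n (1.04 ± 0.19, adjusted p = 0.00234) and Vamp2 (0.54 ± 0.11, adjusted p = 0.00413). Snap23 was lower (−0.66 ± 0.13, adjusted p = 0.00267), at 44.1 and 38.0 CPM with sgMiat-6 and 25.5 and 26.5 CPM with sgMiat-96, and so were Rims4 and Erc1. Of the 9 tested active zone genes, 5 were lower and 0 higher. Among these, Erc1, Pclo and Rims2 have rows of 6000 bp or more, and of all such genes 57.5% were lower and 1.17% higher. Rims3 and Rims4 are under 2000 bp, where 4.09% of all genes were lower and 38.9% higher. Without sgMiat-96 replicate 1, 3 of the 16 members were called, Rab3a, Rims4 and Snap23, and of all genes 636 were higher and 488 lower, against 2361 and 2490 with it. With the length trend removed, 11 members were higher and 4 lower, where 1764 of all 13219 genes tested were higher and 1491 lower. Erc1, Pclo, Rims2, Stxbp5 and Syt7 were no longer among the members called. The active zone group then had 3 higher (Erc2, Unc13a and Unc13b) and 2 lower, with a median of −0.084, against −0.59 without that step.

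**Figure D4:**
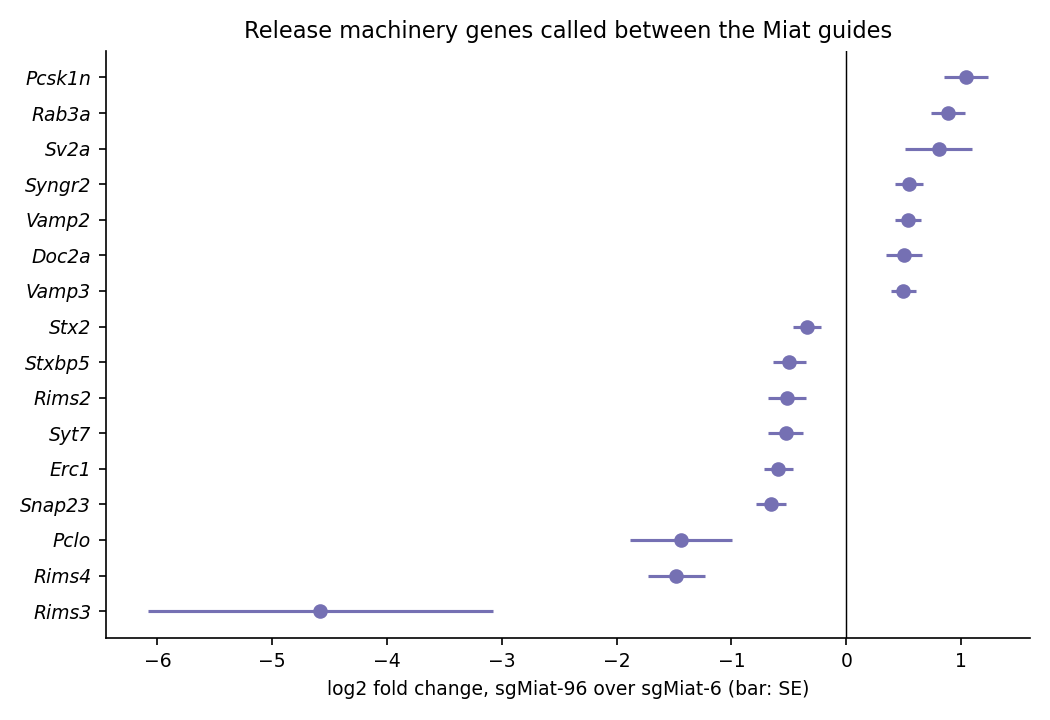
Log2 fold change of sgMiat-96 over sgMiat-6 for the 16 members called in that comparison, with bars for the standard error; the value of Rims3 is fitted from 0 counts with sgMiat-96 and 6 with sgMiat-6. Pcsk1n, at 1.04, is the highest and Rims4, at −1.48, the lowest of the members with more than 6 counts in each group.

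Other genes of the presynapse were divided as the members were. Of 87 further presynaptic genes, 61 were tested, and 16 rose and 25 fell with both guides (median log2 fold change −0.06). Their share called, 67.2%, lies near the 66.5% of all genes tested. Svop, a vesicle transporter-like protein related to Sv2a, rose, being measured at 27.9 and 32.8 CPM with sgMiat-6, at 47.8 and 51.3 CPM with sgMiat-96 and at 3.35 and 2.94 CPM in control (3.62 ± 0.16, edgeR adjusted p = 7.69e-10). Genes that retrieve vesicle membrane after fusion were mixed: of 22 tested, 7 rose, among them Amph (amphiphysin, 1.67) and Clta (a clathrin light chain, 0.82), and 9 fell, among them Cltc (the clathrin heavy chain, −0.87) and Synj1 (synaptojanin 1, −0.87). Of 6 genes for vesicle filling, 2 were tested: the monoamine transporter Slc18a2 was called higher (0.61 ± 0.23, adjusted p = 0.0302) and Slc17a8 lower. The glutamate transporter Slc17a6 and the GABA transporter Slc32a1 had 0 counts in every library. Slc17a8, another vesicular glutamate transporter, had 0 counts with both Miat guides and 23 in control, at least 14.7-fold lower.

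Beside the granins, 28 further genes of granule formation and peptide processing were listed, of which 13 were tested, 6 being higher and 6 lower with both guides. Their share called was 92.3%, against 66.5% of all genes tested. Ptprn (IA-2), a granule membrane protein, was measured at 25.1 and 30.0 CPM with sgMiat-6, at 30.0 and 32.9 CPM with sgMiat-96 and at 10.8 and 11.1 CPM in control, without overlap (1.43 ± 0.13, edgeR adjusted p = 1.02e-06). Pam, which amidates peptides, fell by 0.91 on the log2 scale (adjusted p = 5.09e-06), and Ccdc186, needed for granule maturation, fell by 2.89 (adjusted p = 4.69e-07). The peptide-processing enzyme Cpe was called higher at 0.29 (adjusted p = 0.0104).

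Regulators known to act on many of these genes were listed as well, 24 in all, of which 18 were tested, 7 being higher and 6 lower. Their share called was 72.2%, against 66.5% of all genes tested. Rest, the repressor that keeps neuronal genes off in other cells, was measured at 31.5 and 14.8 CPM with sgMiat-6, at 4.22 and 7.27 CPM with sgMiat-96 and at 46.1 and 45.8 CPM in control (−1.99 ± 0.23, edgeR adjusted p = 7.69e-06). Its corepressor Rcor1 was measured at 26.3 and 14.3 CPM with sgMiat-6, at 2.98 and 6.18 CPM with sgMiat-96 and at 31.7 and 31.1 CPM in control (−1.70). The lowest levels of both were in sgMiat-96, and the sgMiat-6 replicates differed widely. Insm1, a zinc finger factor of neuroendocrine cells, was measured at 11.4 and 13.9 CPM with sgMiat-6, at 7.98 and 8.02 CPM with sgMiat-96 and at 0.361 and 0.456 CPM in control (4.60 ± 0.27, adjusted p = 1.21e-08), and Neurod1, a neurogenic factor, rose by 1.71 on the log2 scale. Any link between these regulators and the members was not tested. Fold changes of listed genes that are not members come from the fit with the length trend left in. The part of transcript length in them was not tested.

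**Figure D5:**
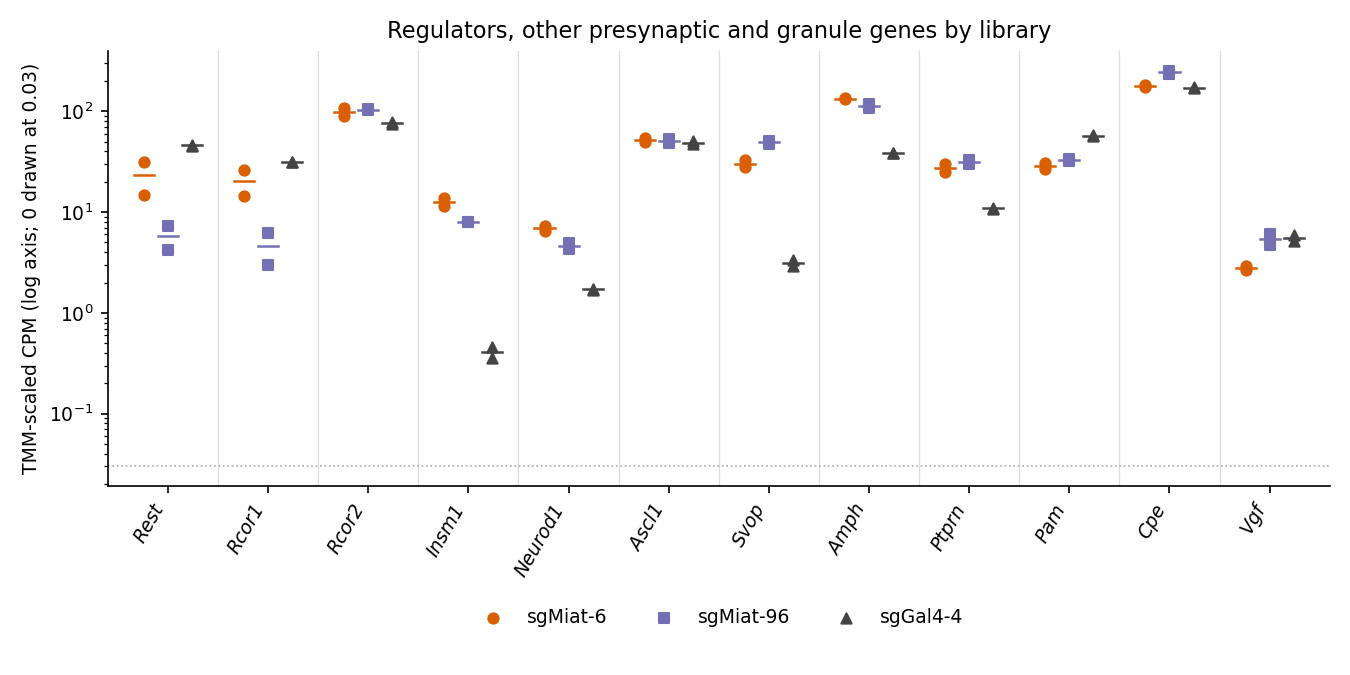
TMM-scaled CPM of 12 regulators and further presynaptic and granule genes in each of the 6 libraries on a log axis, with a horizontal bar for the mean of each group of 2. Rest and Rcor1 are lower in every Miat guide library than in sgGal4-4 libraries, and Insm1, Svop and Ptprn are higher.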

How the data were processed

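Libraries were made with an mRNA kit from 1 µg of column-purified total RNA, per the labels' protocols. The submitters' processing notes name the aligner STAR and the build GRCm38; for the read counter, annotation and strand handling, nothing is given in the sources used here. The deposited files list a whole-number count, an FPKM and a TPM for each of 33984 RefSeq transcript rows, per the file headers. Deposited TPM gave levels per length, and deposited FPKM gave transcript lengths and zeros: 11223 rows of sgMiat-96 replicate 2 listed at 1 count with an FPKM of 0 were set to 0. The row with the highest total count was kept per symbol, since isoform rows share reads.

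The deposited counts entered edgeR 4.0.16 (R 4.3.3, with limma 3.58.1): filterByExpr, TMM scaling, 3 groups over 6 libraries with 3 residual degrees of freedom, and the quasi-likelihood F-test with Benjamini-Hochberg adjustment over 13219 genes. Genes were called at an adjusted p under 0.05. The standard error is the absolute log2 fold change over the square root of F, and fold changes use a prior count of 0.125. A group at 0 counts was set to a floor of 3 counts over the group (3 counts are 0.149 to 0.173 CPM in a library); floors and intervals cover counting error only, and reads are not independent molecules. The biological coefficient of variation was 0.0986, estimated over the 3 groups together. DESeq2 1.42.0, other scalings and filters, the replicate block, other rows, a loess offset over length (span 0.3) and leaving out each library were alternatives. Values in every library are given for members called with both guides or between guides at 2-fold or more with a group mean of at least 2 CPM, and for Syp, Syt1, Snap25, Stx1a, Vamp2 and Rab3a; others with low counts or lost calls are described so that every member is accounted for, and were chosen after their values were seen. Of regulators and other listed genes, those shown were also chosen so. Values of 2 listed genes that are not members are not reported here. The members and gene lists were chosen with earlier results of these data known. Gene positions are from GENCODE M21 and promoter sequences from RefSeq, both GRCm38. Python 3.11.15, pandas 2.3.3, scipy 1.17.1 and matplotlib 3.10.9 were used.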

Additional observations from a re-analysis of the deposited data

Results flagged for a closer look

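The effects of the 2 guides against the shared control differed for 16 of the 45 tested members by the direct test of sgMiat-96 against sgMiat-6 (edgeR, adjusted p under 0.05). That is 35.6% of them, where 36.7% of all genes tested were called, so the share lies near the background. The log2 difference was above 0 for Pcsk1n (1.04), Rab3a (0.88), Sv2a (0.81), Syngr2 (0.55), Vamp2 (0.54), Doc2a (0.50) and Vamp3 (0.50). It was below 0 for Stx2 (−0.34), Stxbp5 (−0.49), Rims2 (−0.51), Syt7 (−0.53), Erc1 (−0.59), Snap23 (−0.66), Pclo (−1.44), Rims4 (−1.48) and Rims3 (−4.58, a fitted value from 6 counts with sgMiat-6 and 0 with sgMiat-96). Of the 16, 13 were not called without sgMiat-96 replicate 1, the exceptions being Rab3a, Rims4 and Snap23, and 7 were not called without sgMiat-6 replicate 1. Sv2a was not called after the removal of any 1 of the 6 libraries, Stx2 after that of 5 of them and Pclo and Rims3 after that of 3 each.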

How the results depend on the processing

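With both guides against sgGal4-4, leaving out 1 library gave 13 to 16 members higher and 12 to 19 lower. With sgMiat-6 it gave 12 to 16 higher and 10 to 13 lower, with sgMiat-96 11 to 16 and 12 to 18, and between the guides 1 to 8 and 2 to 8. Without sgMiat-6 replicate 1, 5 members were higher and 4 lower between the guides. The fits without 1 library tested 13499 to 13594 genes and 47 to 49 members, against 13219 and 45 with all 6 libraries. The number of all genes called also moved with the library left out, in every comparison. These ranges alone therefore do not show instability or robustness particular to the members. With the length trend removed, 11 members were higher and 4 lower between the guides, against 7 and 9. Of all genes, 1764 were then higher and 1491 lower, against 2361 and 2490. That setting turned Stxbp5 to 0.21 (both guides), 0.22 (sgMiat-96) and 0.020 (between guides), Bsn to 0.081 (both) and 0.070 (sgMiat-96), and Rab3a to −0.022 (both), and none of these 6 values was called. The longest transcript row turned Syt6 to 4.13 (both) and 3.55 (sgMiat-96). Scaling by total counts moved the median of all genes to −0.13 (both guides), −0.20 (sgMiat-96) and −0.14 (between guides), and all genes then divided into 3583 higher and 5196 lower with both guides, against 4378 and 4415; the active zone group kept 1 higher and 8 lower. The labels do not say whether the replicate numbers pair the samples. Correlations of replicate deviations between groups were −0.373, 0.0624 and −0.177, which cannot settle this. With the replicate block, 15 members were higher and 15 lower with both guides, against 16 and 17. In that setting the counts were 14 and 11 with sgMiat-6, 14 and 17 with sgMiat-96, and 6 and 8 between guides. For both guides, RLE scaling and counts as listed changed the call of 0 members, and DESeq2 of 3. Between the guides, counts as listed moved Rims3 to −2.17 and ended its call (edgeR adjusted p = 0.14). DESeq2 ended the calls of Pclo (adjusted p = 0.139), Sv2a (adjusted p = 0.163) and Stx2 (adjusted p = 0.0642). The cause of these shifts was not tested.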
